A study of Mus musculus with 16 samples.

Results

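The genes described here are 9 genes of the resting and naive T cell program: Tcf7, Lef1, Satb1, Klf2, S1pr1, Il6ra, Cd44, Ly6c1 and Dapl1. They were chosen by symbol, and every probe set (a group of array probes for 1 transcript) that the array annotation pairs with a symbol was used. Of the 45141 probe sets in the table, 13 were paired with 7 of the 9 symbols. No probe set was paired with Tcf7 or Dapl1 in the annotation used, and these 2 genes were not analysed here. Of the 13 probe sets, 11 passed the filter on low values (a log2 value over 5 on 4 or more arrays), which left 6 genes tested, and Ly6c1 did not pass.

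The samples were CD4 T cells from the spleens of NOD/LtJ mice aged 6 weeks, a strain that develops autoimmune diabetes. There were 4 arrays in each of 4 groups: regulatory T cells (Treg) and conventional T cells (Tconv) from animals labelled wild type (WT), and the same cell types from knock-in animals (KI). The WT animals carried Tg(Foxp3-EGFP/cre)1aJbs, a transgene in which Foxp3 regulatory DNA drives a fusion of GFP and Cre while the Foxp3 gene itself is intact. The KI animals carried Foxp3tm2Ayr, an allele in which GFP is fused to the Foxp3 protein. Both genotypes therefore carried a GFP reporter, and no group without one was included. Whether a group's 4 arrays stand for 4 mice is not given in the labels, so p-values measure only the spread between these samples, which may be technical.

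Resting T cells keep a transcription program that holds them quiescent and lets them recirculate between blood and lymphoid organs. TCF-1 (Tcf7) and Lef1 are DNA-binding partners of the WNT pathway that maintain naive and memory T cells, Satb1 organises chromatin loops, and Klf2 drives the genes of exit from and entry into lymphoid organs, S1pr1 among them. Activation lowers this program and raises Cd44, the hyaluronan receptor by which experienced T cells are recognised, and Tregs are known to hold resting and effector subsets that differ in the same genes.

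Foxp3, the factor that defines Tregs, averaged 9.86 ± 0.20 (SD, n = 4 arrays) on the log2 scale in WT Treg and 9.76 ± 0.29 in KI Treg, against 4.63 ± 0.32 in WT Tconv and 3.69 ± 0.09 in KI Tconv. The T cell markers averaged 10.15 to 10.47 over all 16 arrays. Among them Cd4 was lower in Treg (-0.71 in WT and -0.49 in KI, limma adjusted p = 1.56e-05 and 0.000659). Cd5 was higher in Treg (0.62 and 0.59, limma adjusted p = 0.000306 and 0.000423), and Cd3e, Cd3d and Cd3g did not pass. The mean of the 2 CD8 T cell markers was 6.11 to 6.45 in WT Treg and 5.85 to 6.26 in KI Treg, against 4.80 to 5.19 in WT Tconv and 5.18 to 5.61 in KI Tconv. This gap came from Cd8a, higher in Treg by 2.35 in WT and 1.82 in KI, while Cd8b1 differed by 0.079 and -0.26 and did not pass. Of 4 B cell markers paired with probe sets, 3 passed the filter, and the list mean ranged from 4.64 to 6.95 with overlap between the groups. Among them Cd79b was higher in Treg (1.15 in WT, adjusted p = 0.0354, and 1.38 in KI, adjusted p = 0.0112), and Ms4a1 and Cd22 did not pass. Of 5 NK cell markers, 2 passed the filter (list mean 3.79 to 5.02), and Eomes was higher in Treg (0.92 in WT, adjusted p = 0.00255, and 0.83 in KI, adjusted p = 0.00503) while Tyrobp did not pass. Neutrophil markers (4 of 5 above the filter) ranged from 3.50 to 7.55 and erythroid markers (1 of 2 above the filter) from 5.69 to 9.23, also with overlap. Monocyte and macrophage markers (1 of 5 above the filter) ranged from 3.67 to 5.13, with overlap as well. None of the 4 dendritic cell or 4 endothelial and stromal markers passed the filter. The part of these cell types in the results below was not tested. Array numbers in the sample names fall into 3 ranges: 4 to 9 hold WT arrays only, 13 to 23 KI arrays only, and 24 to 27 hold 1 array of each group, called replicate 4. Replicates were numbered in order of deposition, and the labels do not say what these numbers stand for.

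The stretches upstream of 4 members are shown because these genes had the firmest differences between Treg and Tconv, Lef1, Satb1 and Klf2 being lower and Cd44 higher in Treg. Each is the 250 bases before the most upstream start listed by RefSeq in GRCm38.p6, read 5′ to 3′ on the strand of the gene. Capitals mark the KLF motif, CCACCC or its reverse complement GGGTGG.
Lef1: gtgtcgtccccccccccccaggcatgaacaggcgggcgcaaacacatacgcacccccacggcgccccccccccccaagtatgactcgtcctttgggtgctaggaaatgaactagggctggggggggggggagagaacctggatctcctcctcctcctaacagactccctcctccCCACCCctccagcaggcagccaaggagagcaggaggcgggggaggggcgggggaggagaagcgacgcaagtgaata
Klf2: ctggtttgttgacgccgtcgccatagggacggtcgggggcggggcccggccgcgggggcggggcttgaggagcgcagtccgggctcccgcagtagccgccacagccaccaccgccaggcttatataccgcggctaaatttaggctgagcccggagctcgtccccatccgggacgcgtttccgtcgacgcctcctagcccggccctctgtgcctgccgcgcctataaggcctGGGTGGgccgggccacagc
Satb1: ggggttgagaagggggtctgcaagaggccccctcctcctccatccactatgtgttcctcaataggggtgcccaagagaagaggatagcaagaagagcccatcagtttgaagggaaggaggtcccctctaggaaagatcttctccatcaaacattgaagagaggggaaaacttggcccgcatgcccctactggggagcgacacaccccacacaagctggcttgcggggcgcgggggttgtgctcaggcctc
Cd44: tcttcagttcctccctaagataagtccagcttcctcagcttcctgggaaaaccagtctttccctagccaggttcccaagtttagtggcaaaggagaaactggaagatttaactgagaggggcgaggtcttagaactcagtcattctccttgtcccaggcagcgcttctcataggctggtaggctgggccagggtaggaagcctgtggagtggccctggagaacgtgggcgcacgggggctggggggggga
The Lef1 stretch is chr3:131110047-131110296 on the plus strand and holds a CCACCC 76 bases before the start. The Klf2 stretch is chr8:72318812-72319061 on the plus strand and holds a GGGTGG 19 bases before the start. The Satb1 stretch, chr17:51833291-51833540, and the Cd44 stretch, chr2:102901666-102901915, lie on the minus strand and hold no KLF motif. The motif depends on the start taken: of 5 starts listed for Satb1, 3 others had it within 250 bases upstream, and of 4 listed for Lef1, 1 had none. Searched on both strands, the KLF motif was in 28.1% of 32851 such windows of all genes. None of the 4 stretches held the forkhead motif GTAAACA (3.17% of windows), the TCF and LEF motif CTTTGAA or CTTTGAT (7.48%) or the ETS motif CCGGAAG (6.91%), and none of the motifs overlaps another of these by its letters. GC content was 66.4% upstream of Lef1, 71.2% for Klf2, 58.0% for Satb1 and 56.4% for Cd44, against a median of 52.4% over all windows. A match of these letters is a description of the sequence and not evidence of binding.

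In both genotypes Treg had less Lef1, Satb1 and Klf2 transcript than Tconv and more Cd44. Il6ra was lower in WT Treg and S1pr1 in KI Treg. In each genotype 5 of the 6 tested members passed the test (limma, adjusted p under 0.05), with Cd44 higher and 4 lower. Over all 8139 genes tested, 34.6% passed in WT and 41.1% in KI (higher 16.7% and lower 17.9% in WT, higher 21.2% and lower 19.9% in KI). The median difference of the 6 members was -0.30 in WT and -0.62 in KI, against -0.03 and -0.02 over all genes. The plot of member levels by group shows every array.

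**Figure D1:**
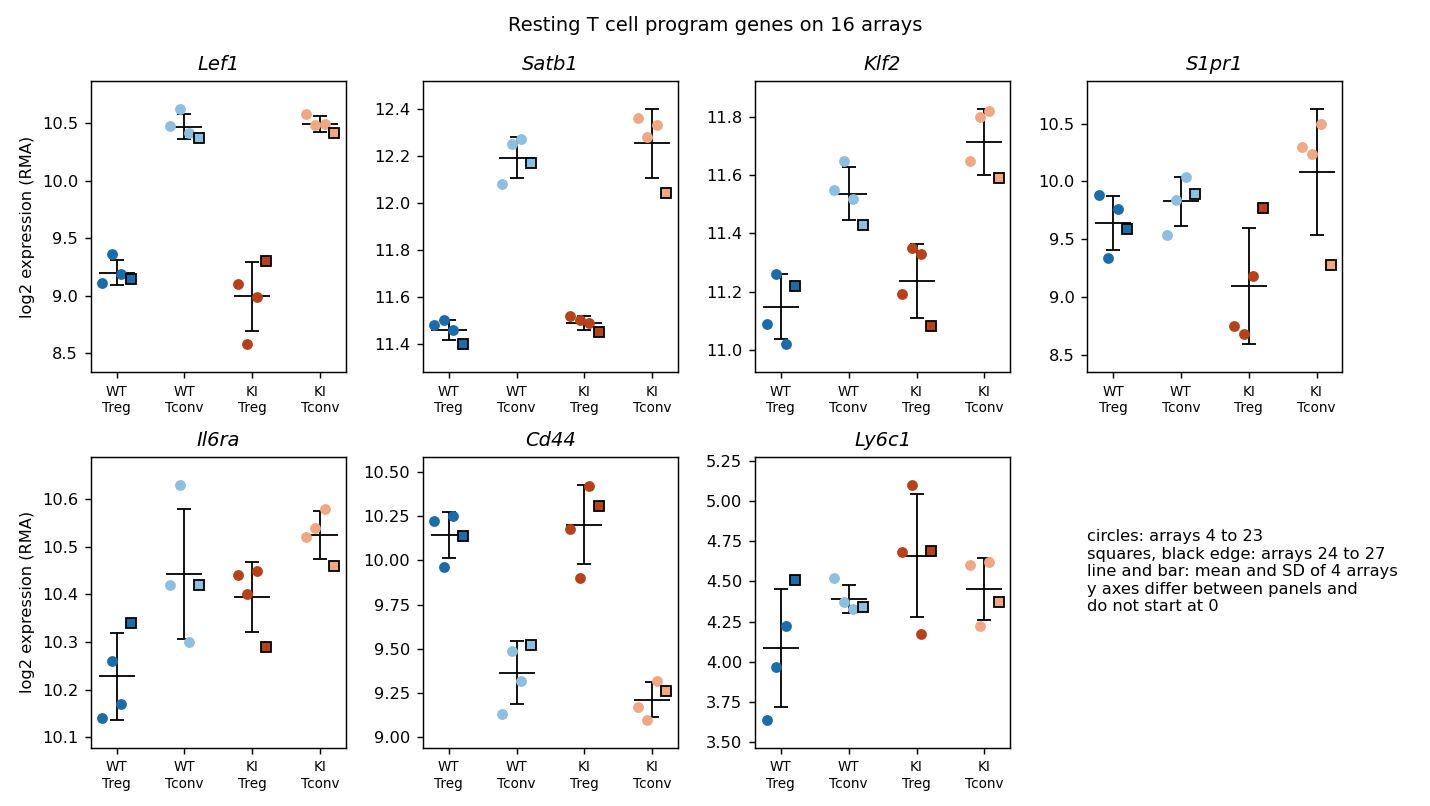
Log2 expression (vertical axis) of each member on the 16 arrays by group (horizontal axis). Points are arrays (squares for array numbers 24 to 27), and lines and bars are the mean and SD of 4 arrays. Lef1, Satb1 and Klf2 are lower and Cd44 higher on every Treg array than on any Tconv array, while Ly6c1 lies between 3.64 and 5.10 with the groups mixed.

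Lef1 (gene identifier 16842, chr3:131110297-131224357 in GRCm38.p6) had the largest difference among the members by their brightest probe sets. Its probe set, 1421299_PM_a_at, read 9.11, 9.36, 9.19 and 9.14 on the 4 WT Treg arrays and 10.47, 10.62, 10.41 and 10.37 on the WT Tconv arrays. In KI it read 9.10, 8.58, 8.99 and 9.30 in Treg and 10.58, 10.48, 10.49 and 10.41 in Tconv. No Treg array reached the lowest Tconv array in either genotype, and Tconv of both genotypes lay in 1 narrow band. The level in Treg was 2.41-fold lower than in Tconv in WT (log2 difference -1.27, SE 0.11, adjusted p = 3.98e-08) and 2.82-fold lower in KI (-1.50, SE 0.11, adjusted p = 3.39e-09). In bulk samples, fewer cells with the transcript and less transcript per cell cannot be told apart.

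Satb1 (20230, chr17:51736187-51833290), the chromatin organiser, was measured by 3 probe sets that gave nearly the same picture. The brightest, 1416007_PM_at, read 11.48, 11.50, 11.46 and 11.40 in WT Treg and 12.08, 12.25, 12.27 and 12.17 in WT Tconv. It read 11.52, 11.50, 11.49 and 11.45 in KI Treg and 12.36, 12.28, 12.33 and 12.04 in KI Tconv. Treg and Tconv did not overlap, and the Treg values of both genotypes fell within 11.40 to 11.52. Treg were 1.67-fold lower in WT (-0.74, SE 0.060, adjusted p = 1.75e-08) and 1.69-fold lower in KI (-0.76, SE 0.060, adjusted p = 9.02e-09). The probe sets 1416008_PM_at and 1436182_PM_at gave differences of -0.88 and -0.99 in WT and -0.88 and -0.99 in KI, and both passed in the fit over 18621 probe sets. Each probe set thus gave the same difference in WT and KI to within 0.02, although the probe sets themselves ranged from -0.74 to -0.99.

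Klf2 (16598, chr8:72319062-72321654), the regulator of trafficking genes, differed by less. Probe set 1448890_PM_at read 11.09, 11.26, 11.02 and 11.22 in WT Treg and 11.55, 11.65, 11.52 and 11.43 in WT Tconv. It read 11.19, 11.35, 11.33 and 11.08 in KI Treg and 11.65, 11.80, 11.82 and 11.59 in KI Tconv. The groups were again separate in both genotypes. The level in Treg was 1.31-fold lower in WT (-0.39, SE 0.073, adjusted p = 0.000396) and 1.39-fold lower in KI (-0.48, SE 0.073, adjusted p = 3.84e-05).

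S1pr1 (13609, chr3:115710433-115715055), the sphingosine 1-phosphate receptor that lets T cells leave lymphoid organs, was the most variable member, with a pooled SD within groups of 0.403 against 0.088 to 0.174 for the other tested members. Probe set 1423571_PM_at read 9.88, 9.34, 9.76 and 9.59 in WT Treg and 9.54, 9.84, 10.04 and 9.89 in WT Tconv. In KI it read 8.75, 8.68, 9.18 and 9.77 in Treg and 10.30, 10.24, 10.50 and 9.28 in Tconv. In KI the first 3 replicates of each cell type were well apart, and replicate 4 lay on the other side, with Treg above Tconv. The KI difference passed with that overlap (1.98-fold lower in Treg, -0.98, SE 0.24, adjusted p = 0.00304), and the WT difference did not pass (-0.19, SE 0.24, adjusted p = 0.595). Without KI Treg 4 and KI Tconv 4, arrays 26 and 27, an alternative added after these values were seen, the KI difference was -1.48 (adjusted p = 6.82e-07), and within arrays 24 to 27 it was 0.49, from 1 array a group and with no test.

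**Figure D2:**
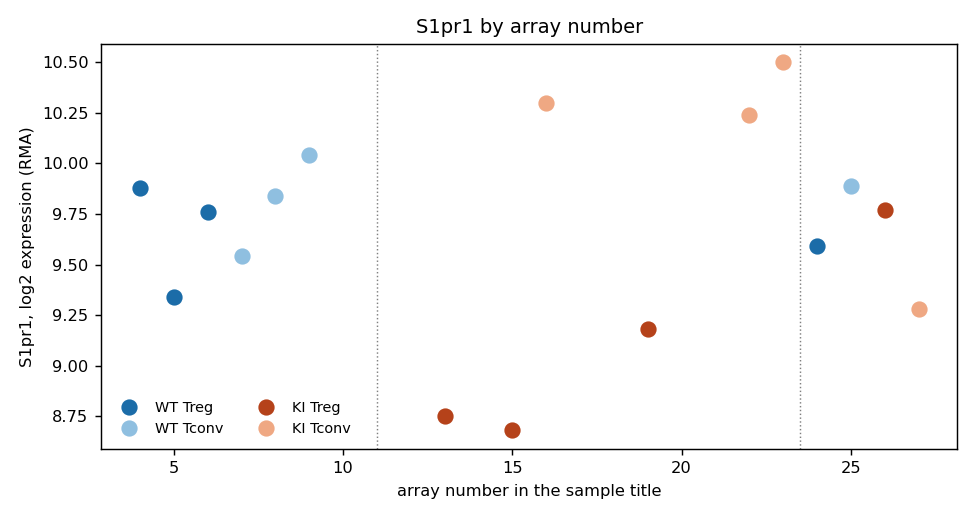
Log2 expression of S1pr1 (vertical axis) on each array, ordered by the array number in the sample names (horizontal axis), with the 4 groups marked by colour and the 3 number ranges split by dotted lines. In arrays 13 to 23, KI Treg lie at 8.68 to 9.18 and KI Tconv at 10.24 to 10.50, while in arrays 24 to 27 KI Treg 4 is at 9.77 and KI Tconv 4 at 9.28.

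By the brightest probe sets, KI Tconv 4 was also the lowest KI Tconv array for Lef1, Satb1, Klf2 and Il6ra, so that it had the lowest value of its group in 5 of 5 members that were lower in Treg. By the Satb1 probe set 1436182_PM_at, however, it was the highest (10.53 against 10.33 to 10.43). KI Treg 4 was the highest of its group for Lef1 and S1pr1 and the lowest for Satb1, Klf2 and Il6ra. Its neutrophil marker mean was 6.28 and that of KI Tconv 4 was 5.88, both inside the range of the other KI arrays, and their CD8 marker means were 6.26, the highest of KI Treg, and 5.18, the lowest of KI Tconv. Their monocyte and macrophage marker means, 4.86 and 4.57, were each the highest of the group. Those of WT Treg 4 (5.13) and WT Tconv 4 (4.62) were the highest of their groups too. The erythroid marker means of KI Treg 4 and KI Tconv 4, 5.92 and 5.69, were each the lowest of the group. The part of these cells in the S1pr1 values was not tested. The mean of the 4 Treg markers, Foxp3 included, was 10.67 in KI Treg 4 and 5.36 in KI Tconv 4, each the lowest of its group and on the side of its label.

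Il6ra (16194, chr3:89869324-89913196), the receptor subunit that binds interleukin 6, differed least among the members that passed. Probe set 1452416_PM_at read 10.14, 10.26, 10.17 and 10.34 in WT Treg and 10.42, 10.63, 10.30 and 10.42 in WT Tconv. It read 10.44, 10.40, 10.45 and 10.29 in KI Treg and 10.52, 10.54, 10.58 and 10.46 in KI Tconv. The WT groups overlapped and the KI groups did not, by 0.01 between the highest KI Treg and the lowest KI Tconv. The WT difference passed (1.16-fold lower in Treg, -0.22, SE 0.067, adjusted p = 0.0172) and the KI difference did not (-0.13, SE 0.067, adjusted p = 0.131). The WT call was lost without WT Treg 1 (-0.19, adjusted p = 0.0590), without WT Treg 3 (-0.20, adjusted p = 0.0521) or without WT Tconv 2 (-0.16, adjusted p = 0.0745). The dimmer probe set 1422270_PM_a_at, at 6.75 to 7.66 over all arrays, passed in neither genotype (-0.08 in WT, adjusted p = 0.730, and -0.20 in KI, adjusted p = 0.325), and the WT call was also lost with the mean of both probe sets (-0.15, adjusted p = 0.248).

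Cd44 (12505, chr2:102811141-102901669) was the member that was higher in Treg, and 3 of its 4 probe sets showed it. The brightest, 1423760_PM_at, read 10.22, 9.96, 10.25 and 10.14 in WT Treg and 9.13, 9.49, 9.32 and 9.52 in WT Tconv. It read 10.18, 9.90, 10.42 and 10.31 in KI Treg and 9.17, 9.10, 9.32 and 9.26 in KI Tconv. All 8 Treg arrays lay above all 8 Tconv arrays. Treg were 1.72-fold higher in WT (0.78, SE 0.10, adjusted p = 1.09e-05) and 1.99-fold higher in KI (0.99, SE 0.10, adjusted p = 4.31e-07). The probe sets 1434376_PM_at and 1452483_PM_a_at gave larger differences, 0.82 and 1.31 in WT and 1.19 and 1.55 in KI, or up to 2.93-fold, and all passed in the probe set fit. The probe set 1443265_PM_at stayed at 2.61 to 3.01 on all arrays, below the filter.

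**Figure D3:**
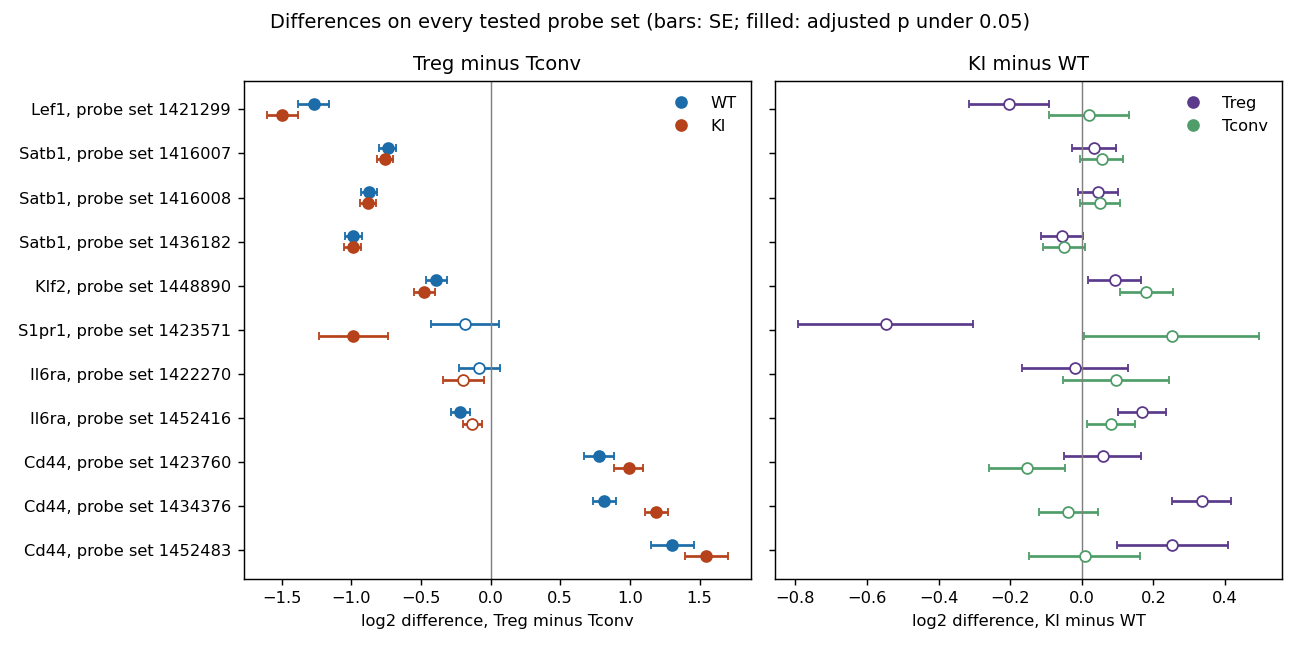
Log2 differences (horizontal axes, with the limma SE as bars) of the 11 member probe sets above the filter (vertical axis), Treg minus Tconv on the left and KI minus WT on the right, filled where the adjusted p is under 0.05. On the left, the 3 Satb1 probe sets lie at -0.74 to -0.99 in both genotypes, and the 3 Cd44 probe sets at 0.78 to 1.31 in WT and 0.99 to 1.55 in KI, and on the right no symbol is filled.

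Over single probe sets, 9 of the 11 above the filter passed between Treg and Tconv in WT and 9 in KI, against 28.9% and 36.6% of all 18621 probe sets. The Treg and Tconv arrays did not overlap in 37.2% of all genes in WT and 34.7% in KI. Among the members, this held in both genotypes for Lef1, Satb1, Klf2 and Cd44, and in KI also for Il6ra.

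Ly6c1 (17067, chr15:75044018-75048920), a surface protein of resting and memory subsets, was near background. Its probe set 1421571_PM_a_at read 3.64, 3.97, 4.22 and 4.51 in WT Treg, 4.52, 4.37, 4.33 and 4.34 in WT Tconv, 4.68, 5.10, 4.17 and 4.69 in KI Treg, and 4.60, 4.22, 4.62 and 4.37 in KI Tconv. The groups overlapped in every comparison. The 23 nonspecific control probe sets reached 4.71 (median 2.60), and of the Ly6c1 values only that of KI Treg 2, 5.10, lay above this. Ly6c2 is a near-identical copy of this gene, so which of the pair the probes read is uncertain.

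The second question of the design is whether these genes differed between KI and WT within a cell type. The WT animals carried a GFP transgene of their own, so such a difference cannot be assigned to the KI allele alone. Arrays 4 to 9 were WT only and arrays 13 to 23 KI only. Outside arrays 24 to 27, genotype and array number range therefore cannot be told apart. None of the 6 tested members passed between KI and WT Treg, with adjusted p from 0.216 to 0.818 in limma, where 2.84% of all genes passed (1.99% higher and 0.848% lower). At an unadjusted p under 0.05 there were 2, S1pr1 (-0.55, SE 0.24) and Il6ra (0.17, SE 0.067). None passed between KI and WT Tconv either, where 0.135% of genes passed (0% higher and 0.135% lower), and 1, Klf2 (0.18, SE 0.073), had an unadjusted p under 0.05. The other values in Treg were -0.20 for Lef1, 0.03 for Satb1, 0.09 for Klf2 and 0.06 for Cd44. In Tconv they were 0.02 for Lef1, 0.06 for Satb1, 0.25 for S1pr1, 0.08 for Il6ra and -0.15 for Cd44. By their brightest probe sets, all 7 measured members had overlapping KI and WT arrays in both cell types (arrays did not overlap for 8.12% of all genes in Treg and 3.74% in Tconv). With array weights, which give arrays that depart from their group less influence, S1pr1 and Il6ra passed in Treg and Klf2 in Tconv.

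The interaction, the KI minus WT difference in Treg less that in Tconv, passed for none of the 6 members (0.786% of all genes, 0.663% higher and 0.123% lower), with 1, S1pr1, at an unadjusted p under 0.05. It was -0.22 (SE 0.16) for Lef1, -0.02 (SE 0.085) for Satb1, -0.09 (SE 0.10) for Klf2, 0.09 (SE 0.095) for Il6ra and 0.21 (SE 0.15) for Cd44. For S1pr1 it was -0.80 (SE 0.34, adjusted p = 0.509). Il6ra passed between Treg and Tconv in WT and S1pr1 in KI, but neither difference was shown to depend on genotype in this test.

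S1pr1 was the member whose genotype result depended on single arrays. Without KI Treg 4 the KI minus WT difference in Treg was -0.77 (adjusted p = 0.0457). Without KI Treg 4 and KI Tconv 4 it was -0.77 (adjusted p = 0.00377), and the interaction was -1.29 (adjusted p = 0.00349). Without all of arrays 24 to 27 the values were -0.79 (adjusted p = 0.0128) and -1.33 (adjusted p = 0.0140). In each of these sets, however, all KI Treg arrays left fall in the range 13 to 23, which holds no WT array. Array number range and genotype therefore cannot be told apart in any of them. Within arrays 24 to 27, with 1 array a group, KI minus WT was 0.18 in Treg and -0.61 in Tconv. With array weights the interaction was -1.23 (adjusted p = 0.00477).

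Among single probe sets, 1434376_PM_at of Cd44 came nearest to a genotype difference in Treg. It read 9.76, 9.80, 9.75 and 9.74 in KI Treg and 9.24, 9.50, 9.48 and 9.49 in WT Treg, with no overlap, and differed by 0.33 (SE 0.083, adjusted p = 0.0521, where 1.51% of probe sets passed). The other Cd44 probe sets gave 0.06 (adjusted p = 0.819) and 0.25 (adjusted p = 0.433).

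The order of the group means was KI Tconv, WT Tconv, WT Treg and KI Treg for Lef1 (10.49, 10.47, 9.20 and 8.99) and for S1pr1 (10.08, 9.83, 9.64 and 9.09). It was KI Tconv, WT Tconv, KI Treg and WT Treg for Satb1 (12.25, 12.20, 11.49 and 11.46), Klf2 (11.72, 11.54, 11.24 and 11.15) and Il6ra (10.53, 10.44, 10.39 and 10.23). For Cd44 it was KI Treg, WT Treg, WT Tconv and KI Tconv (10.20, 10.14, 9.37 and 9.21). Genotypes of 1 cell type overlapped in each of these 6 genes. The step between the cell types was clear of overlap for Lef1, Satb1, Klf2 and Cd44, and all neighbours overlapped for S1pr1 and Il6ra.

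The other genes of these pathways are given as counts, and no list was tested as a whole. Counts between Treg and Tconv are to be read against the shares of all genes that passed, 34.6% in WT and 41.1% in KI. For counts between KI and WT the shares were 2.84% in Treg and 0.135% in Tconv, and for the interaction 0.786%. Of 23 other genes of the resting and homing program, 18 were tested, and 7 were lower and 1 higher in WT Treg (median -0.21), against 10 lower and 1 higher in KI Treg (median -0.26). The share that passed in WT in either direction was not far from that of all genes. By direction, 17.9% of all genes were lower and 16.7% higher in WT, and 19.9% lower and 21.2% higher in KI. The largest differences were those of Igfbp4, which binds insulin-like growth factors (-3.15 in WT and -3.27 in KI, adjusted p = 1.4e-13 and 4.88e-14). Nsg2, a vesicle protein best known in neurons, differed by -2.23 and -1.89, and Actn1, an actin crosslinker, by -1.32 and -1.65, all of which passed. The 1 gene that was higher in Treg was Id3, named after its values were seen. It differed by 1.42 in WT and 1.00 in KI (limma adjusted p = 6.87e-07 and 3.56e-05), in WT a larger difference than that of Actn1. Between KI and WT Treg, 1 of the 18 was higher and 2 were lower (median -0.06), against 1.99% higher and 0.848% lower over all genes. Bach2, named after its values were seen, was lower by 0.28 (limma adjusted p = 0.031), and its call was not followed through the alternatives. Nsg2 was higher by 0.39 (adjusted p = 0.0267) and Btg1, an antiproliferative factor, fell by 0.18 (adjusted p = 0.0136). The Nsg2 call ended without any 1 of WT Treg 1, 3 or 4 or KI Treg 1, 2 or 3 (0.33 to 0.40). The Btg1 call ended without WT Treg 1 or KI Treg 2 (-0.17 in each case), and it stood at 0.12 with its most variable probe set and -0.030 with the mean of its probe sets. It also ended without the variance trend (adjusted p = 0.0874) and with only the groups compared (adjusted p = 0.0559), as did that of Nsg2 with only the groups compared (adjusted p = 0.0973). With the 3 array number ranges as a block, both calls were lost (Nsg2 0.26, adjusted p = 0.514, and Btg1 -0.14, adjusted p = 0.566).

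Most genes known to be raised on activation and memory went the other way. Of 18, 17 were tested, and 13 were higher and 2 lower in WT Treg (median 1.64) and 14 higher and 2 lower in KI Treg (median 2.77). The 2 that were lower, named after their values were seen, were Fasl (-1.65 in WT and -1.97 in KI) and Id2 (-1.51 and -1.65). Several of them, Tnfrsf4 and Il2rb among them, are also known as Treg genes. Tnfrsf4, the OX40 costimulatory receptor, was higher by 3.41 in WT and 3.89 in KI, Il2rb, the beta chain of the interleukin 2 receptor, by 2.88 and 3.39, and Gzmb, granzyme B, by 3.23 and 4.52. Between KI and WT Treg 4 were higher and none lower (median 0.49, all genes 0.04), against 1.99% higher and 0.848% lower over all genes. Among the 4 were Prdm1, the effector regulator Blimp-1 (0.89, adjusted p = 0.000729), Icos, a costimulatory receptor (0.57, adjusted p = 0.000729), and Gzmb (0.76, adjusted p = 0.011). The Gzmb call ended without KI Treg 1 (0.68) and with the 3-range block (0.67, adjusted p = 0.436). The remaining gene of the 4 was Cd69 (0.68, limma adjusted p = 0.0405), which turned to -0.071 with that block and is described below with the S1P genes. Between KI and WT Tconv none was higher and 2 were lower (median -0.33, all genes 0.01), S100a4 (-1.28, adjusted p = 0.022) and Klrg1 (-1.59, adjusted p = 0.0033), which are named after their values were seen. Over all genes, 0.135% were lower in that comparison. In Tconv, Prdm1 stood at -0.32, Icos at -0.37 and Gzmb at -0.54, and none of these passed. Of the 4 Treg markers, Foxp3 (-0.93, limma adjusted p = 0.0104) and Ikzf2 (-0.83, adjusted p = 5.8e-06) were also lower in KI Tconv than in WT Tconv. Il2ra (-0.10) and Ctla4 (-0.19) did not pass. Foxp3 in Tconv read 4.24 to 4.96 in WT and 3.57 to 3.78 in KI, under the filter level of 5 and near background. Gzmb (means of 4.21 in WT Tconv and 3.67 in KI Tconv) and Il2ra (3.49 to 4.13 and 3.39 to 3.91) were also under that level. Differences that involve these values may understate the fold. Ikzf2 passed in the interaction too (0.75, limma adjusted p = 0.00139). The part of Treg transcripts in these Tconv and interaction values was not tested. The interaction, which takes up the differences in both cell types, passed for 8 of the 17, all positive (Prdm1 1.21, Icos 0.95 and Gzmb 1.29). Over all genes it passed for 0.786%, 0.663% of them positive and 0.123% negative. Of the 18 tested resting and homing genes, the interaction passed for none in limma, with 3 at an unadjusted p under 0.05.

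**Figure D4:**
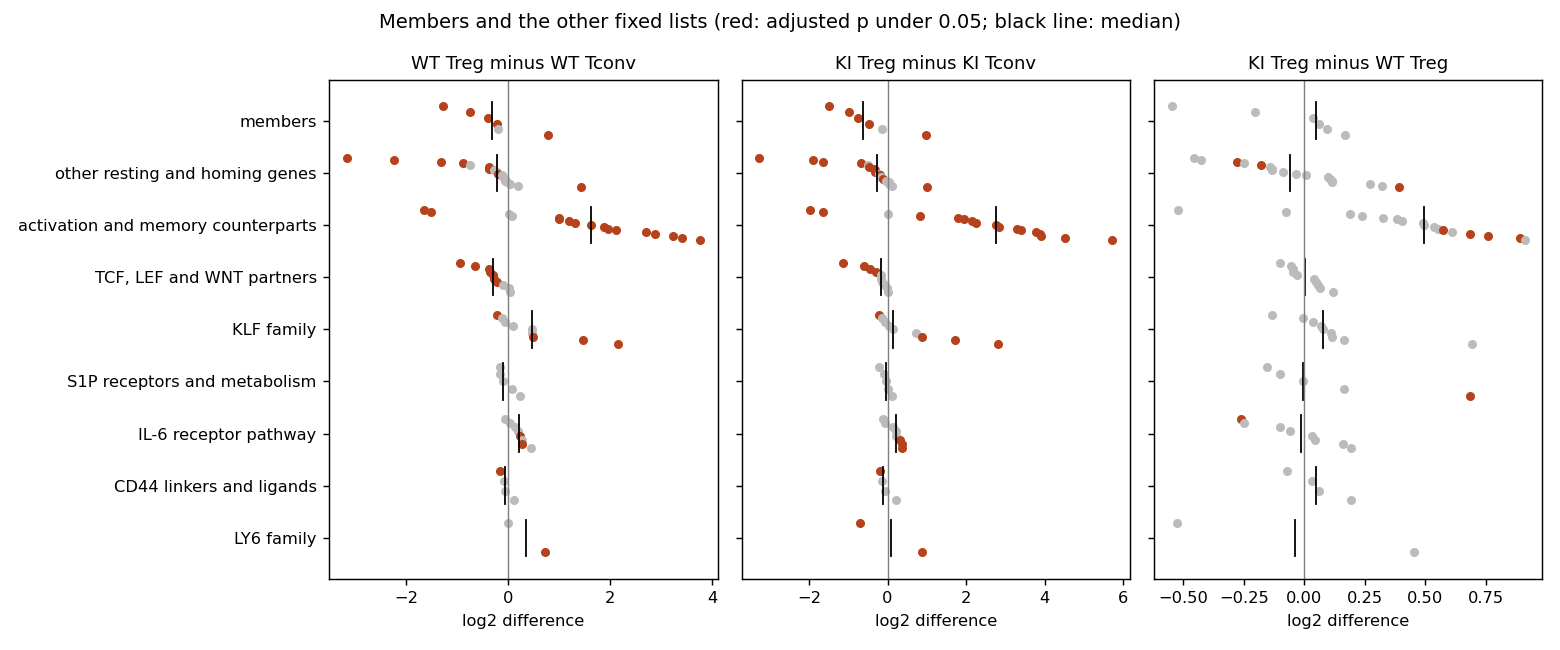
Log2 differences (horizontal axes) of the tested genes in each list (vertical axis) for Treg minus Tconv in WT and in KI and for KI minus WT in Treg. Points are genes, red where the adjusted p is under 0.05, and black lines are list medians. The activation and memory genes have medians of 1.64 in WT and 2.77 in KI, and the other resting and homing genes -0.21 and -0.26.

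Of 16 partners of Lef1 in the WNT pathway, 10 were tested, and 7 were lower and none higher in WT Treg (median -0.29). In KI Treg 4 were lower and none higher (median -0.16). This share was near the 41.1% of all genes that passed in KI in either direction, of which 19.9% were lower and 21.2% higher. Tle4, a corepressor bound by TCF and LEF factors, differed by -0.65 in WT and -0.61 in KI, and Bcl9 and Bcl9l, which bridge beta-catenin to its coactivators, by -0.95 and -0.36 in WT and -1.13 and -0.45 in KI. Axin1, a scaffold of the beta-catenin destruction complex, passed in WT (-0.21, adjusted p = 0.0292) and not in KI (-0.14). Its WT call ended without WT Treg 1 or 2 or WT Tconv 2 or 3 (-0.17 to -0.20), without the filter on low values (adjusted p = 0.0589) and with the mean of its probe sets (-0.0098), and it stood at 0.19 with its most variable probe set. Between KI and WT Treg none of the 10 passed in limma, and 0 had an unadjusted p under 0.05.

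Of 12 KLF family genes beside Klf2, 9 were tested, with 3 higher and 1 lower in Treg of each genotype and 5 that did not pass. Klf12 and Klf9 were higher in Treg, by 2.16 and 1.48 in WT and 2.82 and 1.71 in KI, and Klf13 was the 1 that was lower (-0.22 in both genotypes, adjusted p = 0.00811 and 0.00776), the direction of Klf2. Both Klf13 calls ended with the mean of its probe sets (-0.18 in WT and -0.15 in KI, adjusted p = 0.0552 and 0.0909). Klf12 averaged 3.32 ± 0.28 in WT Tconv and 2.78 ± 0.14 in KI Tconv, near the level of control probe sets, so its fold is compressed. Between KI and WT Treg none passed in limma and 0 had an unadjusted p under 0.05, with Klf4 at 0.69 (SE 0.35) and Klf3 at -0.13.

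Of 11 S1P receptors and enzymes of S1P metabolism, 5 were tested beside S1pr1, and none passed between Treg and Tconv in limma, with 0 at an unadjusted p under 0.05 in either genotype. Sgpl1, the S1P lyase, stood at 0.24 in WT (adjusted p = 0.117). Cd69, which pulls S1pr1 from the cell surface, is counted with them and also with the activation genes. It read 9.57, 9.83, 9.62 and 10.23 in WT Treg and 10.59, 10.43, 10.76 and 10.21 in KI Treg, where KI Treg 4 was the lowest KI array and WT Treg 4 the highest WT array. The KI minus WT difference was 0.68 (SE 0.17, adjusted p = 0.0405) in Treg and 0.74 (SE 0.17, adjusted p = 0.19) in Tconv. The Treg call ended without any 1 of WT Treg 1, 2 or 3, WT Tconv 3, or KI Treg 1, 2 or 3 (0.60 to 0.71), and turned to -0.07 with the 3 array number ranges as a block. It was also lost in 5 further settings, with adjusted p from 0.0502 to 0.0809.

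In the interleukin 6 receptor pathway, 8 of 10 genes were tested, with 2 higher and none lower in WT Treg and 3 higher and none lower in KI Treg. Adam10 and Adam17, proteases that shed the interleukin 6 receptor, were higher in WT Treg by 0.28 and 0.24, and Adam17 by 0.37 in KI. The Adam17 call in WT ended without WT Treg 3 or 4 or WT Tconv 1 or 2 (0.19 to 0.24). With the most variable probe set of each gene the Adam10 call (0.20, adjusted p = 0.472) and both Adam17 calls (0.43 in WT and 0.41 in KI, adjusted p = 0.126 and 0.127) ended. Il6st, the shared signalling chain, stood at 0.14 in WT and 0.21 in KI and passed in neither. Jak2, a kinase of that chain, fell by 0.26 between KI and WT Treg (adjusted p = 0.0281), a call that ended without WT Treg 1 or 3 or KI Treg 1, 2 or 3 (-0.24 to -0.26). It ended too with the 3-range block (-0.080), with the mean (-0.23) or the most variable (-0.20) of its probe sets and with only the groups compared (adjusted p = 0.0547).

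Of the linkers and ligands of Cd44, 4 of 7 were tested, and only Ezr, which ties its tail to actin, passed (lower in Treg, -0.17 in WT and -0.20 in KI, adjusted p = 0.0231 and 0.0074). Its WT call ended without WT Treg 1 or 3 or WT Tconv 3 (-0.12 to -0.16). Of the LY6 family beside Ly6c1, 2 of 8 were tested. Ly6e, a broadly expressed member, was higher in Treg of both genotypes (0.73 and 0.89), and Ly6k was lower in KI Treg (-0.71, adjusted p = 0.0312). Ly6k averaged 4.68 ± 0.44 in KI Treg, near background, and 5.39 ± 0.44 in KI Tconv. Its call ended without KI Treg 1 or 4 or KI Tconv 2, 3 or 4 (-0.52 to -0.70) and without arrays 24 to 27 (-0.51). It also ended with only the groups compared (adjusted p = 0.0541).

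The genes whose pattern lay closest to each member were found by the root mean square log2 difference over the 16 arrays, each gene centred on its own mean. For Lef1 they were Emb (0.167) and Fam78a (0.168), for Satb1 Clip1 (0.0832) and Ikzf1 (0.0844), and for Klf2 Sh3gl1 (0.0816) and Ptpra (0.0822). For Cd44 they were Ptger4 (0.123) and Rabgap1l (0.13), and for Il6ra Clta (0.0732) and Ccar2 (0.0781). The closest genes to S1pr1, Zfp398 (0.263) and Rbm6 (0.283), were the farthest of these. The SD of each member over the same arrays was 0.735 for Lef1, 0.395 for Satb1, 0.256 for Klf2, 0.519 for S1pr1, 0.141 for Il6ra and 0.483 for Cd44.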

How the data were processed

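Expression was measured on 16 Affymetrix arrays of splenic CD4 T cells, 4 in each of 4 groups given by the labels. Per the labels' protocols, sorted cells were lysed at once, mRNA was extracted with TRIZOL, and cRNA was biotinylated by the 3' IVT Express protocol. The labels give the gate CD3+CD4+GFP- for every sample, Treg included, so the Treg gate is unclear. The deposited table gives a log2 value for each probe set, made by the authors with RMA in Partek 6.5 per the submitters' processing notes, whose options are not given in the sources used here. RMA equalises array distributions, and the array medians ran from 3.69 to 3.76. Values under about 5 lie near background, where differences understate the fold, and the number of arrays limits the precision.

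Of 45141 probe sets, 104 were controls, 28898 had 1 gene, 551 several and 15588 none listed. Each of 17097 genes was represented by its probe set with the highest mean, and genes above 5 on at least 4 arrays were kept (8139). The 4 group means were estimated from all 16 arrays in 1 linear model (limma 3.58.1, R 4.3.3, lmFit and eBayes with a trend), with two-sided p-values adjusted by Benjamini-Hochberg over all genes tested and called under 0.05. A second fit used all 18621 probe sets above the filter. The code was tested on simulated data. Alternatives covered the filter, probe set choice, centring, array weights, array number ranges as left out or as a block, the groups fitted, and leaving out each array.

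The members and lists were chosen with earlier results of these data known. Named genes were all members, the up to 3 genes per list with the smallest p in WT Treg minus WT Tconv and up to 2 in KI minus WT Treg, and the 2 genes closest to each called member. Promoter sequences and positions come from RefSeq (GRCm38.p6).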

Additional observations from a re-analysis of the deposited data

Results flagged for a closer look

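In 3 of 52 sets of 4 arrays (13 member probe sets in 4 groups), 1 array stood far from the other 3. Chance alone gives about 1 in 20 such sets. Cd44 probe set 1434376_PM_at read 9.24 in WT Treg 1 and 9.48 to 9.50 in the other WT Treg arrays. The dim Cd44 probe set 1443265_PM_at, below the filter, read 3.01 in WT Treg 1 against 2.63 to 2.66, and 2.83 in KI Treg 4 against 2.67 to 2.69.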

How the results depend on the processing

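Of 372 tested alternative values for the members between Treg and Tconv, 367 kept their direction and call, and 5 lost the call. The calls of Lef1, Satb1, Klf2 and Cd44 were among those kept, and the Il6ra call in WT also ended with the mean of its probe sets (-0.15) and its most variable probe set (-0.08). Leaving out 1 array left 4 to 5 members called in WT. Within arrays 24 to 27 the KI difference of S1pr1 was 0.49. Against 0 members called between KI and WT Treg, there were 2 with array weights (S1pr1 and Il6ra), 1 without arrays 24 to 27, 1 without KI Treg 4 and KI Tconv 4, and 0 to 1 when leaving out 1 array. Between KI and WT Tconv there was 1 with array weights (Klf2), and for the interaction 1 with array weights, 1 without arrays 24 to 27 and 1 without KI Treg 4 and KI Tconv 4. Of the called differences, Btg1 (-0.18) between KI and WT Treg turned to 0.12 and Axin1 (-0.21) in WT to 0.19 with the most variable probe set, and Cd69 between KI and WT Treg turned from 0.68 to -0.071 with the 3 array number ranges as a block. Member differences that were not called and changed sign were, with the most variable probe set, Cd44 (0.0086) and Satb1 (-0.050) between KI and WT Tconv, Il6ra (-0.018) and Satb1 (-0.054) between KI and WT Treg, and Il6ra in the interaction (-0.11). With the 3-range block they were Il6ra (-0.050) and Satb1 (-0.028) in Tconv and Klf2 (-0.030) and Satb1 (-0.049) in Treg. Il6ra in the interaction was -0.014 with the mean of its probe sets, and Satb1 in Treg was -0.00053 with median centring. Leaving out 1 array gave -0.014 to 0.16 for Cd44 in Treg, -0.012 to 0.072 for Lef1 in Tconv and -0.091 to 0.017 for Satb1 in the interaction. The cause of these changes was not tested.

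Over all genes, the 231 calls between KI and WT Treg became 1715 with array weights, 29 with the 3-range block, 422 without arrays 24 to 27, 877 without KI Treg 4 and KI Tconv 4, and 101 to 571 when leaving out 1 array. The 11 calls in Tconv became 249, 5, 105, 167 and 7 to 65 in the same order, and 4 with only the groups compared. The 64 interaction calls became 453 with array weights, 102 without KI Treg 4 and KI Tconv 4, and 37 to 104 when leaving out 1 array. No paired analysis was possible because the labels give no replicate numbers that are shared between groups. The replicate numbers used here only follow the order of deposition, and the array number ranges were fitted as blocks in their place.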
